A study of Mus musculus with 12 samples.

Results

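B, T and NK cells are the lymphocytes that live in or pass through the liver beside its hepatocytes. In this mouse liver RNA-seq study 9 marker genes of these cells were examined. They were picked by symbol from the 22609 genes counted in each library. Cd79a, Cd79b and Ms4a1 mark B cells, Cd3e, Cd3d, Cd8a and Cd4 mark T cells, and Nkg7 and Gzma mark NK cells and other cytotoxic lymphocytes. Whole livers of untreated adult mice were sequenced from 4 genotypes, with 3 mice and so 3 libraries in each. WT mice carried no transgene, AEG1 mice carried Alb/AEG-1, MYC mice carried Alb/c-Myc and AEG1_MYC mice carried both, and all came from a cross of heterozygous single transgenic parents. Alb stands for the albumin promoter, which is active in hepatocytes, so the transgenes were directed to hepatocytes and not to the lymphocytes measured here. Strain, sex, exact age and the transgenes' species are not given in the sources used here. Replicate numbers only name the mice.

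B cells recognise antigen through a membrane immunoglobulin whose signal is passed on by the CD79 chains, while T cells do so through a T cell receptor held in a complex with the CD3 chains. NK cells kill without a rearranged receptor, by releasing granules that hold perforin and granzymes, and cytotoxic CD8 T cells use the same granules. The mouse liver holds resident NK and T cells in its sinusoids, and blood lymphocytes pass through the same channels.

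The total of reads in genes ran from 21931197 to 40552316 per library. Myc, the check of the MYC label, was at 2.26 to 4.73 CPM, the count scaled to a fixed library total after TMM (trimmed mean of M-values) adjustment, in the 6 libraries without Alb/c-Myc and at 23.4 to 165 CPM in the 6 with it. Mtdh, the mouse gene for AEG-1, was at 89.0 to 112 CPM in all 12 libraries and gave no check of the AEG1 label. The tissue label was checked by hepatocyte genes, with Alb at 24138 to 92835 CPM. AEG1_MYC replicates 2 and 1 stood apart from the other libraries on the first principal component, at 99.2 and 34.1 against at most 10.7 elsewhere. Fold changes of markers and list counts that turned in their own genotype without them, or without AEG1 replicate 3, are given with both values. Without AEG1_MYC replicates 1 and 2 together, only AEG1_MYC replicate 3 is left, so such AEG1_MYC values rest on 1 mouse.

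All 9 markers were scarce in the whole liver. Their reads ran from 1 (Cd3d and Cd8a in MYC replicate 3, Gzma in MYC replicate 2) to 91 (Ms4a1 in AEG1 replicate 3) per library, and 7 of the 9 passed the filter on low counts that 13684 genes passed. Cd3d and Cd8a did not pass, and their fold changes come from a fit without the filter. Scaled to exon length, the WT level was highest for Nkg7 at 0.580 ± 0.0477 CPM per kilobase (SD, n = 3) and Gzma at 0.565 ± 0.434, followed by Cd4 at 0.429 ± 0.199 and Cd79b at 0.421 ± 0.0596. Cd79a came next at 0.255 ± 0.145, then Ms4a1 at 0.136 ± 0.0501, Cd8a at 0.0740 ± 0.0507, Cd3d at 0.0726 ± 0.0105 and Cd3e at 0.0648 ± 0.0329. On the same scale Clec4f, a Kupffer cell lectin, was at 46.0 ± 25.8. The WT mice of each marker overlapped with those of the next marker in this order, except that Cd79b, at 0.362 or more, lay above Cd79a, at 0.342 or less.

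The 250 bases before the start of 4 markers are shown, because these are the 2 CD3 genes whose reads parted in 1 library and the 2 genes with the largest excess in another, both described further on. They were taken from RefSeq on GRCm38.p6, whose table held 6 of the 9 markers, and are written on the strand of the gene. Capitals mark matches, on either strand, to the core AGGAAG of ETS factors (a family that includes lymphocyte regulators such as ETS1) or to TGTGGT, the core of RUNX sites. AGGAAG stood in 29.5% and TGTGGT in 14.0% of all 32851 promoters of the same length. Cd3e lies at chr9:45009612-45009861 on the minus strand, Cd3d at chr9:44981536-44981785 on the plus strand, Cd8a at chr6:71373177-71373426 on the plus strand and Gzma at chr13:113100982-113101231 on the minus strand.
Cd3e: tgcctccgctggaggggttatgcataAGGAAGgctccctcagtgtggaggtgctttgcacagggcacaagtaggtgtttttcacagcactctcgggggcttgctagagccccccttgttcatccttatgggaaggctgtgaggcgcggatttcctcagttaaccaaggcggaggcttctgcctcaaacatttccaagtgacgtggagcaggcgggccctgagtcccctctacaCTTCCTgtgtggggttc
Cd3d: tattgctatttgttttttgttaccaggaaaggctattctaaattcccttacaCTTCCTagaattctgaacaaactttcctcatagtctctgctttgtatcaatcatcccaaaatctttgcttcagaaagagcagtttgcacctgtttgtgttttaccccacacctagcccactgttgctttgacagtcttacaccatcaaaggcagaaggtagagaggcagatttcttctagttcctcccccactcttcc
Cd8a: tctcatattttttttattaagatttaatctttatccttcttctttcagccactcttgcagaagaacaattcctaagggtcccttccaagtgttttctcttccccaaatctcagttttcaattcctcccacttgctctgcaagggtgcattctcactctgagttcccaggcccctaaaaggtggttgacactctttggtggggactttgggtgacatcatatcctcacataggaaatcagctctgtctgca
Gzma: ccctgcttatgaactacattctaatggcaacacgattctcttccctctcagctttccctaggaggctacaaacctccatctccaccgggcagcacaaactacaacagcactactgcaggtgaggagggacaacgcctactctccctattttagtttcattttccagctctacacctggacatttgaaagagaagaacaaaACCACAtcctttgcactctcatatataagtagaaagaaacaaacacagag
Cd3e held 2 matches to AGGAAG, Cd3d 1, and Gzma 1 match to TGTGGT, while these 250 bases of Cd8a held neither. The octamer ATTTGCAT, found in 1.60% of promoters and known from immunoglobulin promoters, was in none of the 4. The matches are letters in a window and no binding was measured.

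No marker passed the threshold in any comparison between genotypes. Under edgeR's quasi-likelihood test with Benjamini-Hochberg adjustment over the 13684 tested genes, 0 of 7 tested markers reached an adjusted p under 0.05 for AEG1 against WT (0% of all genes did), for MYC against WT (0%), for AEG1_MYC against WT (0.263%), for AEG1_MYC against AEG1 (0.322%), for AEG1_MYC against MYC (0.205%), for the interaction of the transgenes (0.0219%), or for any difference among the 4 genotypes (0.519%). Also 0 of the 7 had an unadjusted p under 0.05, which 3.92% of all genes had for AEG1, 3.47% for MYC and 17.2% for AEG1_MYC against WT. DESeq2 and limma called 0 of the markers as well. The median standard error of a marker's log2 fold change against WT was 0.596, 0.603 and 0.606 in the 3 contrasts, against 0.208 over all genes in each.

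Among the B cell markers, Cd79a and Cd79b encode the paired signalling chains of the B cell receptor. Cd79a was measured at 0.488, 0.498 and 0.128 CPM in the WT mice, while the AEG1 mice had 0.335, 0.971 and 1.004, the MYC mice 0.380, 0.697 and 0.685 and the AEG1_MYC mice 0.694, 0.830 and 0.257. WT replicate 3, with 3 reads, was lowest, and every transgenic group had a library inside the WT range. The log2 fold change against WT was 1.01 ± 0.60 (SE) in AEG1, 0.64 ± 0.60 in MYC and 0.65 ± 0.61 in AEG1_MYC, with adjusted p of 0.999718, 0.999421 and 0.598.

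The WT mice had Cd79b at 0.519, 0.689 and 0.598 CPM, the AEG1 mice at 0.502, 1.12 and 1.81, the MYC mice at 0.553, 1.37 and 0.843 and the AEG1_MYC mice at 1.49, 1.81 and 0.546. The WT libraries lay close together, and in each transgenic group 2 libraries lay above them and 1 lay within or just below their range. Against WT, the fitted change of Cd79b on the log2 scale was 0.93 ± 0.56 in AEG1, 0.62 ± 0.56 in MYC and 1.09 ± 0.55 in AEG1_MYC, the last with an unadjusted p of 0.0752 and an adjusted p of 0.335. Over the settings tried its adjusted p was lowest, at 0.122, without AEG1_MYC replicate 3. With AEG1_MYC replicate 3 as the only library of its group, the AEG1_MYC value was -0.13 for Cd79b and -0.54 for Cd79a.

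Ms4a1 encodes CD20, a membrane protein of mature B cells. Levels of Ms4a1 were 1.13, 0.881 and 0.513 CPM for WT mice, 0.669, 0.971 and 2.28 for AEG1 mice, 0.760, 0.808 and 1.11 for MYC mice and 0.859, 1.48 and 0.449 for AEG1_MYC mice. AEG1 replicate 3 stood above all others at 1.54 times the next library, and the MYC libraries lay wholly inside the WT range. For Ms4a1 the log2 fold change was 0.64 ± 0.53 in AEG1, 0.08 ± 0.54 in MYC and 0.14 ± 0.54 in AEG1_MYC. It became -0.06 in AEG1 without AEG1 replicate 3 and -0.91 in AEG1_MYC without AEG1_MYC replicates 1 and 2.

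Cd79a and Cd79b went up and down together over the 12 libraries, with Pearson r = 0.776 on log2 CPM (permutation p = 0.00214, adjusted over 5 relations 0.0058) and Spearman rho = 0.832 (permutation p = 0.0011, adjusted 0.0055). Without the 2 libraries farthest from the median of Cd79a the r was 0.873, and with the genotype means taken out it was 0.758. Among the genes most like the 3 B cell markers, by Pearson r of log2 CPM with the markers' mean over the 12 libraries, were Siglecg (0.927), Fam169a (0.920), 6230427J02Rik (0.882) and Fitm1 (0.870). Siglecg, an inhibitory lectin of B cells, ran from 0.193 to 0.859 CPM.

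**Figure D1:**
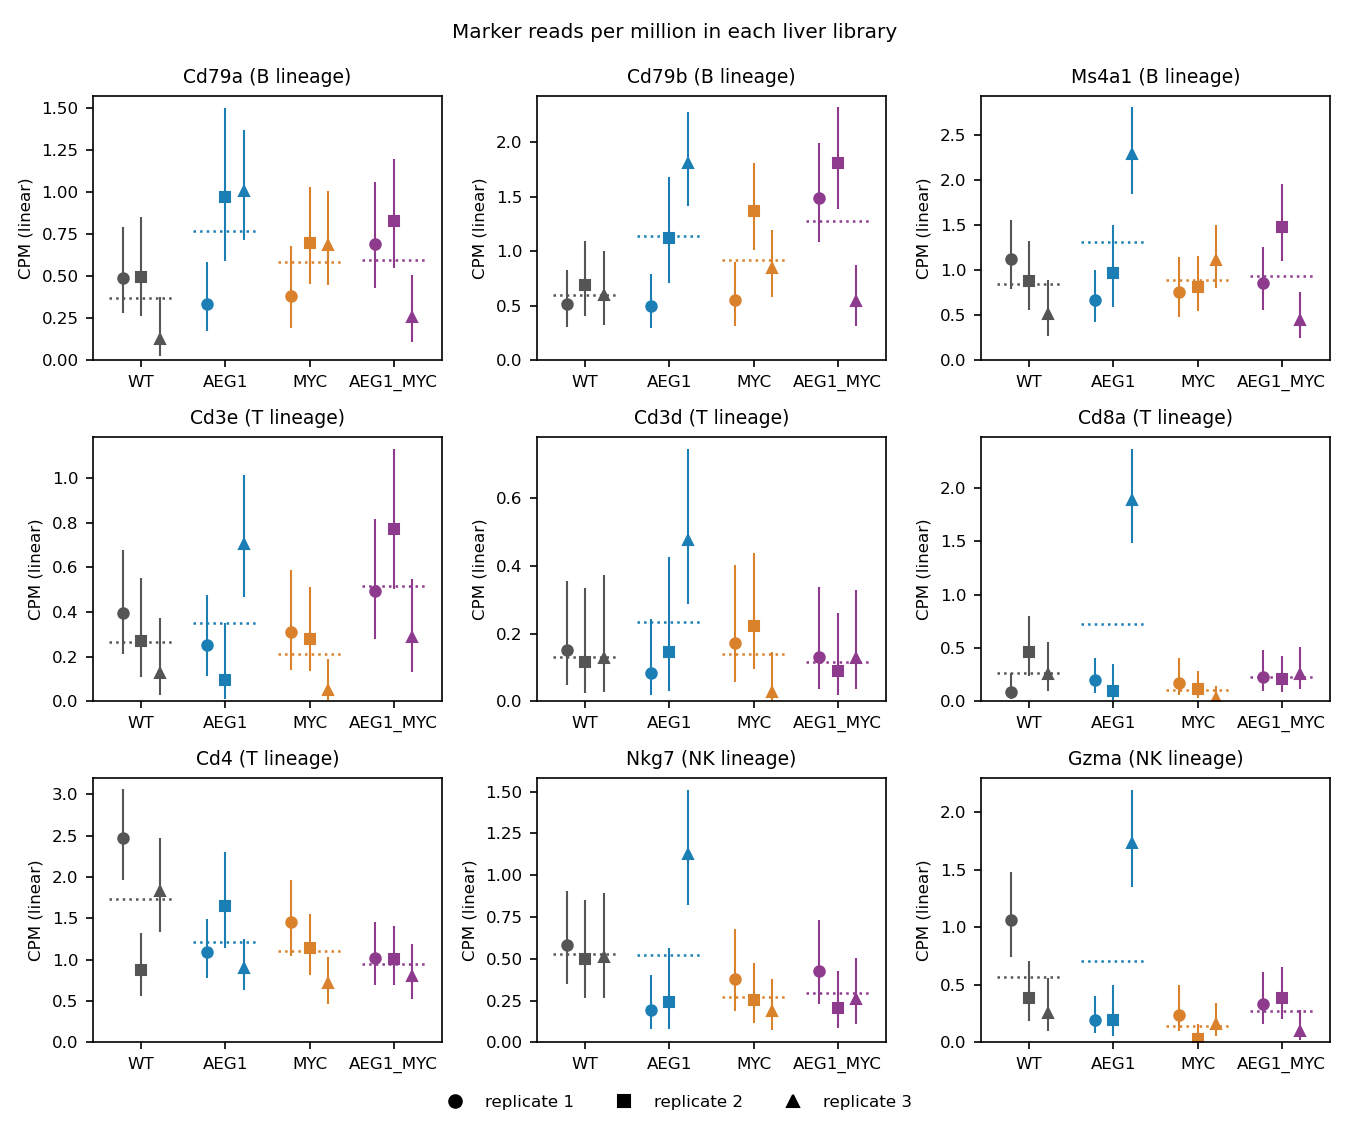
CPM of each of the 9 markers (vertical axis, linear, starting at 0 and scaled per panel) in the 12 libraries, grouped by genotype along the horizontal axis; points are libraries, vertical bars are exact 95% Poisson intervals of the counts, which cover counting error only, and dotted lines are group means. AEG1 replicate 3 is the highest library for 6 of the 9 markers, with Cd8a at 1.88 CPM against at most 0.459 elsewhere.

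Among the T cell markers, Cd3e and Cd3d encode chains of the CD3 complex. Cd3e was measured at 0.397, 0.268 and 0.128 CPM in the WT mice, while the AEG1 mice had 0.251, 0.0971 and 0.703, the MYC mice 0.311, 0.279 and 0.0527 and the AEG1_MYC mice 0.496, 0.771 and 0.289. AEG1_MYC replicate 2 and AEG1 replicate 3 were the 2 highest libraries, and each of the 3 transgenic groups overlapped with WT. Fitted against WT, the log2 change of Cd3e was 0.45 ± 0.74 in AEG1, -0.36 ± 0.78 in MYC and 0.93 ± 0.73 in AEG1_MYC, with an adjusted p of 0.528 for the last. Leaving out AEG1 replicate 3 gave -0.54 for AEG1.

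The WT mice had Cd3d at 0.153, 0.115 and 0.128 CPM, the AEG1 mice at 0.0836, 0.146 and 0.477, the MYC mice at 0.173, 0.223 and 0.0264 and the AEG1_MYC mice at 0.132, 0.0889 and 0.128. Every library but AEG1 replicate 3, with 19 reads, held 1 to 8 reads. Without the count filter, the log2 fold change was 0.85 ± 0.75 in AEG1, 0.06 ± 0.79 in MYC and -0.19 ± 0.81 in AEG1_MYC. Over the 12 libraries Cd3e and Cd3d gave r = 0.532 (permutation p = 0.0724, adjusted 0.121) and rho = 0.420 (adjusted permutation p = 0.218), so no relation between these chains passed the test. Without AEG1 replicate 3 the r was 0.357, and with the genotype means taken out it was 0.692.

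The CD3 chains parted in AEG1_MYC replicate 2. There Cd3e gave 26 of the 31 reads of Cd3e, Cd3d and Cd3g (a further chain of the complex), a share of 83.9% (95% Wilson interval 67.4 to 92.9%). In the other 11 libraries the share was 13.3 to 51.7%, highest in the other 2 AEG1_MYC libraries with 15 of 29 and 9 of 18 reads, and summed to 107 of 302 reads or 35.4% (30.2 to 41.0%). Cd3e was highest in AEG1_MYC replicate 2 among all libraries, while Cd3g was lowest there at 0.0593 CPM. In AEG1 replicate 3, where the total was 85 reads, Cd3e held 28 of them or 32.9% (23.9 to 43.5%). In GENCODE M21 3.31% of the exon bases of Cd3e are also covered by exons of Gm48719 on the opposite strand, and the strand setting of the counting was not given in the sources used here. The intervals cover counting error only, and this library was singled out after its values were seen.

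Cd8a encodes a chain of the CD8 coreceptor, which binds MHC class I. Levels of Cd8a were 0.0915, 0.459 and 0.256 CPM for WT mice, 0.195, 0.0971 and 1.88 for AEG1 mice, 0.173, 0.111 and 0.0264 for MYC mice and 0.231, 0.207 and 0.257 for AEG1_MYC mice. AEG1 replicate 3 held 75 reads (exact 95% Poisson interval 1.48 to 2.36 CPM), 4.10 times the next library and 9.65 times the median of the other 11, while the other 2 AEG1 libraries lay inside the WT range. In the fit without the count filter, Cd8a had a log2 fold change that was 1.49 ± 0.93 in AEG1, -1.36 ± 1.08 in MYC and -0.18 ± 0.996 in AEG1_MYC, and without AEG1 replicate 3 the AEG1 value was -0.77. Cd8b1, the other chain of the coreceptor, was at 0.828 CPM in AEG1 replicate 3 and at 0.0296 to 0.251 CPM elsewhere.

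Cd4 encodes the coreceptor that binds MHC class II and is also carried by some dendritic cells. Cd4 was measured at 2.47, 0.881 and 1.84 CPM in the WT mice, while the AEG1 mice had 1.09, 1.65 and 0.904, the MYC mice 1.45, 1.14 and 0.712 and the AEG1_MYC mice 1.02, 1.01 and 0.803. WT replicates 1 and 3 were the highest libraries, WT replicate 2 was within the range of the MYC and AEG1_MYC groups and just below that of AEG1, and AEG1 replicate 3 was the fourth lowest library. Cd4 had a fitted log2 fold change that was -0.53 ± 0.40 in AEG1, -0.66 ± 0.40 in MYC and -0.87 ± 0.41 in AEG1_MYC. The last gave an unadjusted p of 0.0551 and an adjusted p of 0.301, the lowest of any marker in the comparisons with WT.

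Cd8a and Cd4 reads were thus split differently in AEG1 replicate 3. Cd8a gave 75 of the 111 reads of both genes there, or 67.6% (58.4 to 75.6%), against 3.57 to 34.3% in the other 11 libraries and 12.9% (10.2 to 16.1%) over their sum. The genes most like the 4 T cell markers were Gimap7 (r = 0.891), Sh2d2a (0.881), 2700081O15Rik (0.851), H2afy2 (0.849) and Unc13d (0.845), each highest in AEG1 replicate 3. Gimap7 encodes a GTPase of lymphocytes, and Sh2d2a encodes a T cell specific adaptor. Without AEG1 replicate 3 these values were 0.697 to 0.854.

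**Figure D2:**
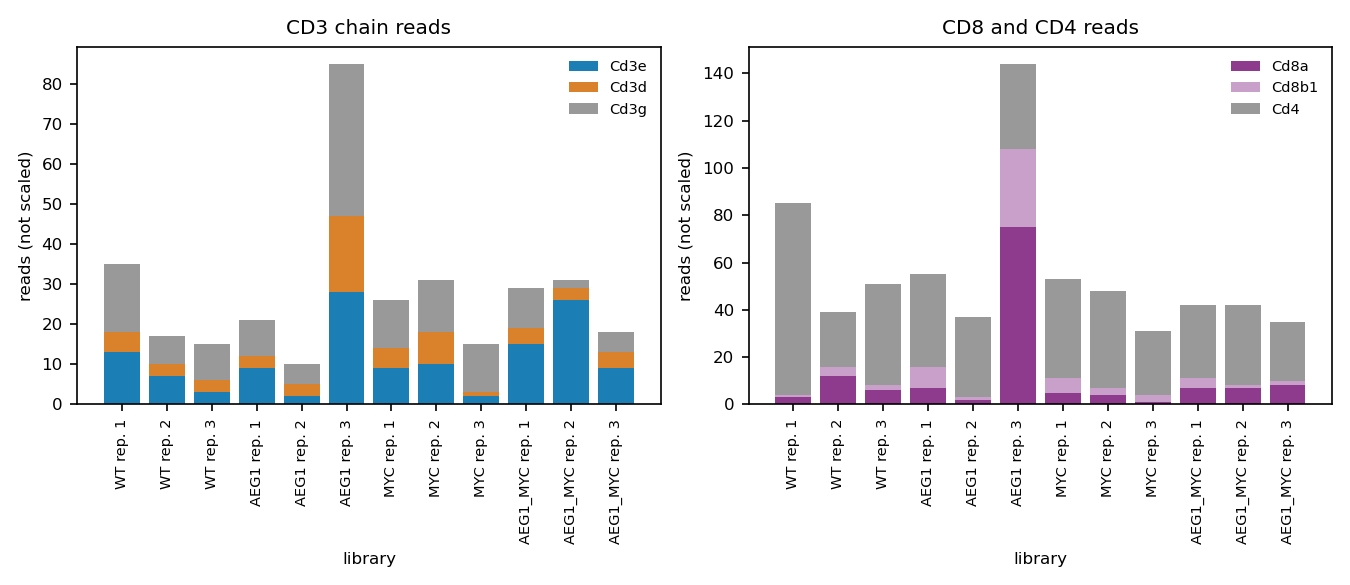
Unscaled reads (vertical axes) of the CD3 chains Cd3e, Cd3d and Cd3g and of Cd8a, Cd8b1 and Cd4, stacked for each of the 12 libraries (horizontal axes). AEG1_MYC replicate 2 is filled by Cd3e, with 26 of 31 CD3 reads, and AEG1 replicate 3 by Cd8a and Cd8b1, with 75 Cd8a reads against 36 Cd4 reads.

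Of the cytotoxic markers, Nkg7 encodes a membrane protein of cytotoxic granules. The WT mice had Nkg7 at 0.580, 0.498 and 0.513 CPM, the AEG1 mice at 0.195, 0.243 and 1.13, the MYC mice at 0.380, 0.251 and 0.184 and the AEG1_MYC mice at 0.429, 0.207 and 0.257. All MYC and all AEG1_MYC libraries lay below all WT libraries, and so did AEG1 replicates 1 and 2. The closest of these libraries to WT, AEG1_MYC replicate 1, and the lowest WT library, WT replicate 2, each held 13 reads. The gap between this pair was within counting error. Their exact 95% Poisson intervals were 0.229 to 0.734 and 0.265 to 0.851 CPM. On the log2 scale, the change of Nkg7 against WT was 0.03 ± 0.60 in AEG1, -0.98 ± 0.63 in MYC and -0.83 ± 0.63 in AEG1_MYC, with adjusted p of 0.999718, 0.999421 and 0.516. With AEG1 replicate 3 left out, the AEG1 value was -1.28.

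Gzma encodes granzyme A, a serine protease released from the granules. Levels of Gzma were 1.07, 0.383 and 0.256 CPM for WT mice, 0.195, 0.194 and 1.73 for AEG1 mice, 0.242, 0.0279 and 0.158 for MYC mice and 0.330, 0.385 and 0.0963 for AEG1_MYC mice. All MYC libraries lay below all WT libraries, with reads of 7, 1 and 6, and the AEG1_MYC libraries overlapped with WT. WT replicate 3 held 6 reads, and its exact 95% Poisson interval of 0.0940 to 0.558 CPM overlapped with that of MYC replicate 1, 0.0972 to 0.498. The fitted log2 change of Gzma was 0.33 ± 0.89 in AEG1, -2.03 ± 1.03 in MYC (unadjusted p = 0.0739) and -1.09 ± 0.96 in AEG1_MYC. Without AEG1 replicate 3 the AEG1 value was -1.55.

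Nkg7 and Gzma were thus the 2 of 7 tested markers with all MYC libraries below all WT libraries, a pattern that 6.09% of all tested genes showed. Nkg7 was the 1 with all AEG1_MYC libraries below WT, which 9.65% of tested genes showed. No marker had a transgenic group wholly above WT, and AEG1 had none wholly below it (5.53% of genes). A wholly higher group was what 5.16% of tested genes showed for AEG1, 5.47% for MYC and 9.81% for AEG1_MYC. In whole liver, fewer lymphocytes and less RNA per lymphocyte cannot be told apart. The 3 comparisons share the WT libraries, so the low values of Nkg7 in MYC and AEG1_MYC are set against the same 3 mice.

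Nkg7 and Gzma gave r = 0.781 over the 12 libraries (permutation p = 0.00232, adjusted 0.0058) and rho = 0.636 (adjusted permutation p = 0.0757). Without AEG1 replicate 3 and WT replicate 1, the 2 libraries farthest from the median of Nkg7, the r was 0.422, so the size of the relation rests in part on them. It was 0.605 without AEG1 replicate 3 alone and 0.731 with the genotype means taken out. Across lineages, Cd79b and Cd3e gave r = 0.436 (adjusted permutation p = 0.165), which was -0.02 without AEG1 replicate 3 and AEG1_MYC replicate 2. Cd3e and Nkg7 gave r = 0.426 (adjusted permutation p = 0.165), which was 0.199 without AEG1 replicate 3, 0.585 without AEG1_MYC replicate 2 and MYC replicate 3, and 0.636 with the genotype means taken out. The genes most like Nkg7 and Gzma were Tbx2 (0.900), Arap2 (0.884), Ccnd1 (0.871), Gpr39 (0.843) and Klrd1 (0.842). Klrd1, which encodes CD94 of an NK cell receptor, is the 1 of these known as an NK gene, at 0.0791 to 0.529 CPM.

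**Figure D3:**
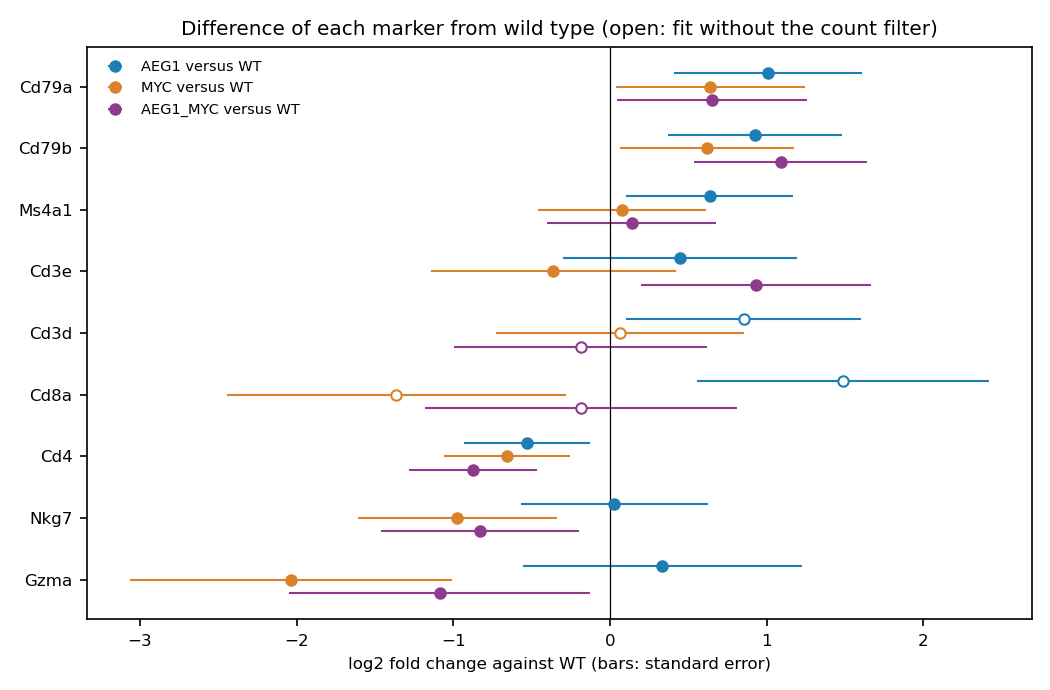
Log2 fold change of each marker against WT (horizontal axis) with its standard error for AEG1, MYC and AEG1_MYC; filled points come from the edgeR fit of 13684 genes and open points, Cd3d and Cd8a, from the fit without the count filter. The points of Cd79a, Cd79b and Ms4a1 lie above 0 and those of Cd4 below it in all 3 comparisons, and none passed the threshold. Without AEG1_MYC replicates 1 and 2, which leaves 1 AEG1_MYC library, the AEG1_MYC values of Cd79a, Cd79b and Ms4a1 were -0.54, -0.13 and -0.91.

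Between transgenic groups the values were as wide. The largest difference of a tested marker between AEG1_MYC and AEG1 was in Gzma, at -1.42 ± 0.94, and the largest between AEG1_MYC and MYC was in Cd3e, at 1.29 ± 0.74 (adjusted p 0.458 and 0.417 in edgeR). Over the tested markers the interaction of the transgenes ran from -0.999 ± 0.83 in Cd79a to 0.85 ± 1.05 in Cd3e, with a lowest adjusted p of 0.725. In the fit without the count filter it was -1.10 ± 1.09 for Cd3d and -0.31 ± 1.55 for Cd8a.

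One mouse held much of the spread. AEG1 replicate 3 was the highest library for 6 of the 9 markers (Cd79a, Ms4a1, Cd3d, Cd8a, Nkg7 and Gzma), while 8.97% of all tested genes were highest there. Its Gzma was 7.16 times, its Nkg7 4.40 times and its Cd3d 3.71 times the median of the other 11 libraries. Cd79b and Cd3e were highest in AEG1_MYC replicate 2, where 23.2% of tested genes were highest, and Cd4 was highest in WT replicate 1. At the other end MYC replicate 3 was lowest for 5 markers (Cd3e, Cd3d, Cd8a, Cd4 and Nkg7), against 4.09% of tested genes.

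Summed by lineage, B cell markers were at 1.81 ± 0.499 CPM for WT, 3.22 ± 1.801 for AEG1, 2.40 ± 0.623 for MYC and 2.80 ± 1.45 for AEG1_MYC mice (SD, n = 3). T cell markers summed to 2.39 ± 0.695, 2.52 ± 1.26, 1.56 ± 0.667 and 1.81 ± 0.305 CPM in the same order. NK cell markers summed to 1.10 ± 0.478, 1.23 ± 1.41, 0.414 ± 0.182 and 0.569 ± 0.204 CPM. These sums are not corrected for gene length and carry no test.

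Longer lists of genes of the same cells, which leave out the 9 markers, held 0 calls by edgeR in each of the 3 comparisons with WT. Of all tested genes edgeR called 0%, 0% and 0.263% for AEG1, MYC and AEG1_MYC. Tested were 21 B lineage, 22 T lineage and 12 NK and cytotoxic genes. At an unadjusted p under 0.05, AEG1, MYC and AEG1_MYC had 3, 1 and 1 B lineage genes, 1, 0 and 5 T lineage genes and 0, 0 and 0 NK and cytotoxic genes, all with positive values. Over all tested genes the shares at that p were 3.92%, 3.47% and 17.2%. DESeq2 called Blnk, Lef1 and Themis of these lists for AEG1_MYC against WT, and limma called Lef1. In that comparison DESeq2 called 652 and limma 23 of all 13684 tested genes. Of 21 tested B lineage genes, 18 had a positive log2 fold change in AEG1 (median 0.47), 18 in MYC (0.40) and 19 in AEG1_MYC (0.45), where the medians over all genes were -0.0018, -0.0030 and 0.013. Leaving out AEG1 replicate 3 gave an AEG1 count of 11 of 21 (median 0.0037). Without AEG1_MYC replicates 1 and 2, which leaves 1 library of that group, the AEG1_MYC count was 8 of 22 (-0.19). The MYC count was 18 of 21 in the first case and 19 of 22 in the second. Neither case left out a MYC or WT library, so these counts are no check of the MYC values. Ralgps2, Blnk and Cd24a had the highest mean CPM of this list. Ralgps2 was at 24.2 to 41.8 CPM in 11 libraries and at 97.3 CPM in AEG1_MYC replicate 2, and Blnk, a B cell adaptor, at 30.9 CPM in that library against 1.84 to 12.9 elsewhere. Cd24a ran from 1.42 to 8.85 CPM.

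Of 22 tested T lineage genes, 14 were positive in AEG1 (median 0.21), 13 in MYC (0.11) and 9 in AEG1_MYC (-0.15), and without AEG1 replicate 3 the AEG1 count was 8 (-0.38). Without AEG1_MYC replicates 1 and 2, when 26 passed the filter, the AEG1_MYC count was 9 (-0.42). Highest in mean CPM were Zap70, a T cell receptor kinase (3.56 to 14.2 CPM), Cd247, the zeta chain of the receptor (5.04 to 8.499 CPM), and Tcf7, a T cell transcription factor (3.11 to 19.5 CPM, highest in AEG1_MYC replicate 2). Of 12 tested NK and cytotoxic genes, 10 were positive in AEG1 (0.19), 4 in MYC (-0.28) and 7 in AEG1_MYC (0.05), and without AEG1 replicate 3, when 13 passed the filter, the AEG1 count was 2 (-0.33). The AEG1_MYC count was 5 of 20 (-0.49) without AEG1_MYC replicates 1 and 2. Il2rb, Klrk1 and Ccl5, those with the highest mean CPM, encode an interleukin 2 receptor chain, the NKG2D receptor and a chemokine, and stood at 0.574 to 2.64, 0.536 to 2.25 and 0.380 to 3.39 CPM. Of 6 plasma cell genes, 5 were positive in AEG1 (0.46), 2 in MYC (-0.22) and 5 in AEG1_MYC (0.30), but 3 of 6 in AEG1 (0.019) without AEG1 replicate 3 and 1 of 6 in AEG1_MYC (-0.32) without AEG1_MYC replicates 1 and 2. Igj, the immunoglobulin joining chain, ran from 1.25 to 6.28 CPM, Derl3 from 0.477 to 7.81 CPM and Pou2f2 from 0.689 to 3.76 CPM.

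**Figure D4:**
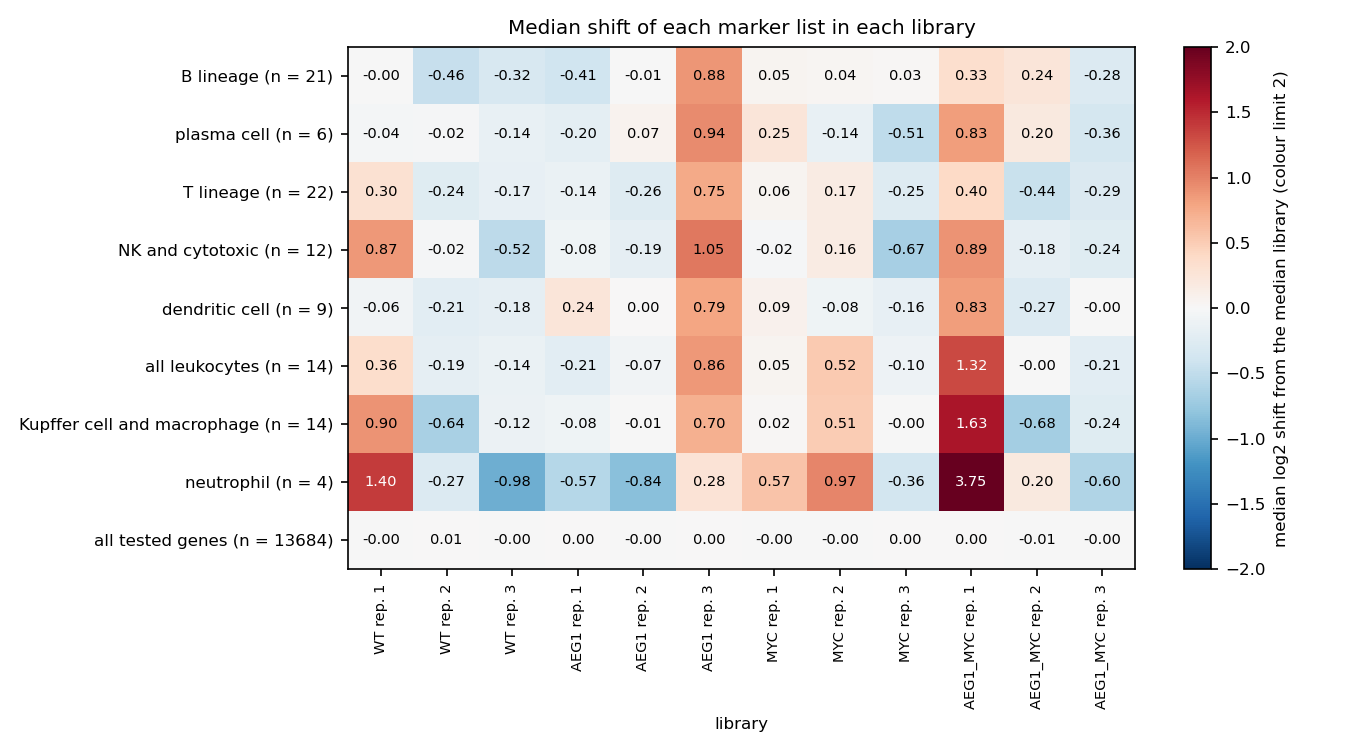
Median shift of each marker list (rows, n is the number of tested genes) in each library (columns), on a log2 CPM scale relative to each gene's median over the 12 libraries; red is above and blue below, with the colour limit at 2. AEG1 replicate 3 is shifted up by 0.88 for B lineage, 0.75 for T lineage and 1.05 for NK genes, and AEG1_MYC replicate 1 by 3.75 for neutrophil and 1.63 for Kupffer cell genes.

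The shift of AEG1 replicate 3 was not limited to lymphocyte genes. This library was highest for 12 of 26 B lineage, 18 of 34 T lineage and 13 of 28 listed NK and cytotoxic genes. Its median shift was 0.86 for 14 genes of all leukocytes, 0.79 for 9 dendritic cell genes, 0.70 for 14 Kupffer cell and macrophage genes and 0.28 for 4 neutrophil genes. AEG1_MYC replicate 1 had a shift of 0.33 for B lineage, 0.40 for T lineage, 0.83 for plasma cell and 0.89 for NK and cytotoxic genes beside 1.32 for all leukocytes and 3.75 for neutrophil genes. In WT replicate 1, where Cd4 and, after AEG1 replicate 3, Gzma and Nkg7 were highest, NK genes were shifted by 0.87 and Kupffer cell genes by 0.90. The summed level of the 14 leukocyte genes was 74.8 to 122 CPM over the WT libraries, 80.7 to 160 over AEG1, 85.4 to 133 over MYC and 83.6 to 213 over AEG1_MYC. That of the 14 Kupffer cell and macrophage genes was 276 to 842, 400.1 to 719, 430 to 636 and 278 to 1395 CPM, and no gene of either list was at 0 in any library. The part of these other cells in the marker values was not tested.

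Of the remaining lists, the counts positive in AEG1, MYC and AEG1_MYC were 12, 12 and 13 of 14 for all leukocytes, 8, 7 and 11 of 14 for Kupffer cells, 9, 6 and 6 of 9 for dendritic cells, and 0, 2 and 4 of 4 for neutrophils. They were 1, 0 and 0 of 1 for red cells, 2, 1 and 2 of 3 for platelets, and 1, 0 and 0 of 7 for hepatocytes. Without AEG1 replicate 3 the AEG1 count was 3 of 14 for all leukocytes, 3 of 14 for Kupffer cells, 8 of 9 for dendritic cells, 0 of 8 for neutrophils and 1 of 2 for red cells. Without AEG1_MYC replicates 1 and 2 the AEG1_MYC count was 1 of 14 for all leukocytes, 2 of 14 for Kupffer cells (median -0.50), 1 of 8 for neutrophils (-1.35) and 1 of 3 for platelets. Of 14 lymphocyte chemoattractant and survival factor genes, 8, 9 and 7 were positive, with medians of 0.02, 0.09 and 0.09, and without AEG1 replicate 3 the AEG1 count was 6 (-0.15). Among them Cxcl9, a ligand of CXCR3 on activated T and NK cells, was highest in AEG1 replicate 3 at 35.0 CPM against 9.997 to 21.5 elsewhere. Cxcl12 was at 337 to 475 CPM in 11 libraries and at 124 CPM in AEG1_MYC replicate 2, and Vcam1, an adhesion molecule for lymphocytes, ran from 8.96 to 70.9 CPM with its highest value in AEG1_MYC replicate 1.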

How the data were processed

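Liver RNA of 12 mice was sequenced after TruSeq library preparation, per the labels' protocols. The authors deposited 1 table of read counts per gene for each library, with 5 summary lines that name no gene and were left out here. These lines held 54.1 to 63.6% of all counts per library, most of it (46.5 to 58.0%) counted as not uniquely aligned. The submitters' processing notes name CASAVA 1.8.2, TopHat2 2.0.7, HTSeq and the mm9 build. The strand setting and annotation are not given in the sources used here. Reads with more than 1 place in the genome stood in that line, so genes with near copies can be undercounted.

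Genes were tested with edgeR 4.0.16 (R 4.3.3, limma 3.58.1) in 1 quasi-likelihood fit of all 12 libraries with 1 coefficient per genotype, TMM scaling, the robust step and edgeR's own filter on low counts, and p-values were adjusted over the 13684 genes that passed. The threshold was an adjusted p of 0.05. The SE of an edgeR log2 fold change was derived from its test, as the absolute fold change over the square root of the F statistic. The 3 comparisons with WT are not independent, since they share its libraries. The fit was tested on simulated counts. CPM are counts over TMM-scaled library totals, and log2 CPM use a prior count of 2. Correlations used 100000 permutations, two-sided, and 5 relations were computed. The 9 markers, 12 gene lists and the tests were chosen with earlier results of these data known. Genes named beside the markers are the 5 tested genes most like each lineage and the 3 most abundant of a list, and others were named after their values were seen. A gene that this rule names for the B cell markers is not reported here. No 2 replicates agreed within sampling noise: chi-square per degree of freedom was 35.8 to 364 over pairs of 1 genotype. Exon lengths and overlaps come from GENCODE M21 on GRCm38, a build other than the authors', and serve only as lengths. Promoters were read from RefSeq on GRCm38.p6. Alternatives were other scalings, filters and tools (DESeq2 1.42.0, limma with quality weights), fits of only the groups compared, and fits with libraries left out.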

Additional observations from a re-analysis of the deposited data

How the results depend on the processing

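The 36 log2 fold changes of markers had 712 alternative values, of which 668 kept their direction and 44 in 20 results turned. None of them passed the threshold, and 0 markers were called in 145 counts under 21 settings. With limma and quality weights the value against WT was -0.33 for Cd3e, -0.93 for Nkg7 and -1.02 for Gzma in AEG1, -0.014 for Ms4a1 and -0.034 for Cd3d in MYC, and -0.30 for Ms4a1 and 0.20 for Cd8a in AEG1_MYC, and the interaction was 1.02 for Cd8a. Leaving out AEG1_MYC replicates 1 and 2 together leaves 1 AEG1_MYC mouse. The AEG1_MYC value was then -0.54 for Cd79a, -0.13 for Cd79b and -0.91 for Ms4a1. The interaction was -0.082 for Nkg7 and -0.83 for Gzma. With single libraries left out, AEG1 values ran from -0.057 to 0.96 for Ms4a1, -0.54 to 0.87 for Cd3e, -0.26 to 1.27 for Cd3d, -0.77 to 2.13 for Cd8a, -1.28 to 0.43 for Nkg7 and -1.55 to 1.18 for Gzma, each lowest without AEG1 replicate 3. MYC values ran from -0.17 to 0.37 for Ms4a1, -0.70 to 0.12 for Cd3e and -0.48 to 0.58 for Cd3d, and AEG1_MYC values from -0.37 to 0.48 for Ms4a1 and -0.62 to 0.46 for Cd8a. The interaction ran from -0.82 to 0.071 for Cd79b, -1.09 to 0.12 for Ms4a1, -1.62 to 0.0086 for Cd3d, -0.95 to 1.95 for Cd8a, -0.044 to 0.64 for Cd4, -0.29 to 1.42 for Nkg7 and -0.23 to 2.50 for Gzma. The correlation of Cd79b with Cd3e was -0.023 without its 2 farthest libraries. The cause of these turns was not tested beyond which library was left out.

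Counts over all genes moved more. DESeq2 called 15 genes for AEG1, 28 for MYC and 652 for AEG1_MYC against WT, 700 for AEG1_MYC against AEG1, 446 against MYC, 152 for the interaction and 738 for any difference, against 0, 0, 36, 44, 28, 3 and 71 in edgeR. Limma called 23 for AEG1_MYC against WT, 5 for the interaction and 29 for any difference, and edgeR without the robust step called 5 for the interaction. Fits of only 2 groups called 2, 2 and 7 for AEG1_MYC against WT, AEG1 and MYC. Without AEG1_MYC replicates 1 and 2 these were 4, 7 and 3, with 1 for the interaction and 5 for any difference. With single libraries left out the counts ran from 0 to 1 for MYC against WT, 6 to 687, 4 to 630 and 6 to 450 for AEG1_MYC against WT, AEG1 and MYC, 1 to 32 for the interaction and 23 to 292 for any difference, each of the last 5 highest without AEG1_MYC replicate 3. The cause was not tested. No paired analysis was possible because each mouse has a number of its own in the labels, and the numbers 1 to 3 used here were given in deposit order and pair no mice. With 1 to 91 reads per marker and library, depth limits the single values.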

Other observations

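The lineages took unequal parts of the marker reads in the mice. Cd79a, Cd79b and Ms4a1 together gave 31.0, 44.3 and 28.4% of the reads of the 9 markers in the WT libraries, 42.9, 55.8 and 42.7% in AEG1, 38.3, 58.5 and 69.4% in MYC, and 53.5, 60.7 and 40.6% in AEG1_MYC. Without Cd4, a choice made after seeing the data, the share was 48.3, 54.5 and 49.2% in WT, 62.1, 79.7 and 46.2% in AEG1, 57.0, 76.3 and 85.5% in MYC, and 65.2, 71.3 and 54.9% in AEG1_MYC. Over all 9 markers 5 of the 9 transgenic livers were above all 3 WT livers, and without Cd4 it was 8 of the 9. The lowest of these 8, AEG1_MYC replicate 3 with 39 of 71 reads (95% Wilson interval 43.4 to 66.0%), lay within counting error of WT replicate 2 with 54 of 99 (44.8 to 64.0%). AEG1 replicate 3, the library with the most reads of the 9 markers, was below the WT livers without Cd4. MYC replicate 3 gave the highest share in both counts, with 100 B cell marker reads beside 4 reads of Cd3e, Cd3d and Cd8a. No test was made of these shares.

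Some other genes of these lists were high in a few libraries, and which cells carried their transcripts was not tested. Themis, known for T cell selection, was at 15.9 CPM in AEG1_MYC replicate 2, 6.80 in AEG1 replicate 3, 3.96 in AEG1_MYC replicate 1 and 0.366 to 1.86 elsewhere. These were also the 3 highest libraries of Cd3e, in the same order, while Cd3g was lowest in AEG1_MYC replicate 2. Lef1, a transcription factor of Wnt signalling and of T cells, was at 1.49, 2.79 and 0.514 CPM in the AEG1_MYC libraries and at 0 to 0.126 in the other 9, with an adjusted p of 0.0535 for AEG1_MYC against WT in edgeR. Cxcl13, a chemoattractant of B cells, was at 39.6 CPM in AEG1_MYC replicate 1 and 9.50 CPM in MYC replicate 2. It was at 0.0321 to 3.60 CPM elsewhere. Neither AEG1_MYC replicate 1 nor MYC replicate 2 was the highest library for Cd79a, Cd79b or Ms4a1. By the summed CPM of these markers they ranked 4 and 5 from the top, at 3.04 and 2.87 CPM. A relation of Cxcl13 to the B cell markers was not tested. AEG1_MYC replicate 1 was the highest library for 4 of 26 B lineage genes (15.4%), namely Bank1, Cd72, Cd37 and Btk. That is near the 12.9% of all tested genes that were highest there.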
